A study of Mus musculus with 18 samples.

Results

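Sterol and fatty acid synthesis is described here through 35 genes: the enzymes of the cholesterol pathway, the SREBP system that regulates them, and the lipogenic enzymes under its control. The genes were chosen by name and function, with earlier results of these data known. Every probe that the platform annotation assigns to them was read. Of the 35 genes, 32 have at least 1 probe (54 probes of 45121 on the array), and 31 had a probe detected (detection p under 0.01) on at least 2 arrays. These 31 were tested among 13106 named genes. Hmgcs1, Fdft1 and Acat2 have no probe in the annotation given and were not analysed here. The single probe of Acaca, acetyl-CoA carboxylase, was detected on 0 of 18 arrays.

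The cells were immortalised mouse embryonic fibroblasts made by the 3T3 protocol from E10.0 embryos of strain background BL6/129/Sv, either jnk1-/-jnk2-/- (KO) or wildtype (wt) for the stress kinases JNK1 and JNK2. Cells of both genotypes were cultured on inserts, in 1 medium that contained insulin, hydrocortisone, cholera toxin, human EGF and calcium-depleted serum. They were sampled before co-culture (day 0) or after 2, 4 or 6 days with differentiating normal human epidermal keratinocytes (NHEK). No array holds fibroblasts kept without keratinocytes for those days, so co-culture and time in culture cannot be told apart. For days 0, 2, 4 and 6, a genotype had 1, 2, 2 and 4 arrays, each with RNA of 1 to 3 inserts of 1 cell line. The p-values therefore rest on how far arrays of the same genotype and day differ, and not on differences among embryos or lines. At day 6 each genotype mixes arrays of 2 sets with different mean intensity, described below, so that variation is not between inserts alone. It enters every comparison, since 1 model was fitted to all arrays. In RNA of whole inserts, fewer cells of a type and less RNA per cell cannot be told apart.

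Cholesterol is built from acetyl-CoA through mevalonate, farnesyl diphosphate and squalene, and the sterol ring closed from squalene is then trimmed and desaturated to cholesterol. When sterols in the endoplasmic reticulum run low, SCAP carries the SREBP precursors, the products of Srebf1 and Srebf2, to the Golgi, where they are cut into transcription factors. INSIG1 and INSIG2 hold SCAP back when sterols are plentiful. SREBP-2 acts mainly on sterol genes and SREBP-1 mainly on fatty acid genes, both usually together with NF-Y, which binds the sequence CCAAT. Dermal fibroblasts and keratinocytes exchange growth factors and cytokines, and skin depends on cholesterol and fatty acids for its barrier.

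Promoter stretches are shown for 7 members: the 5 that were at least 2-fold higher in KO on all 3 co-culture days (Mvk, Dhcr7, Ebp, Acss2, Hsd17b12) and a pair that rose steeply from day 0 to day 2 (Nsdhl, Msmo1). They come from RefSeq windows of 300 bases (250 before and 50 after the start) on GRCm38.p6, read 5′ to 3′ on the gene's strand. Capitals mark matches, on either strand, to CCAAT (the NF-Y box, ATTGG on the other strand), CACGTG (an E-box), TGANTCA (the AP-1 site, bound by JUN, which JNK phosphorylates) or TCACNCCAC (the core of a sterol regulatory element). No matches to different motifs overlap in these stretches.
Mvk, chr5:114444066-114444268, plus strand: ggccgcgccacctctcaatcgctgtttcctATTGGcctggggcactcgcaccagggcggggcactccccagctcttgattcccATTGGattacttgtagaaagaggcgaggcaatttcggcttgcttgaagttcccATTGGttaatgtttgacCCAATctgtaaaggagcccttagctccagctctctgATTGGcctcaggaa
Dhcr7, chr7:143823205-143823270, plus strand, from 1 of its 3 listed starts: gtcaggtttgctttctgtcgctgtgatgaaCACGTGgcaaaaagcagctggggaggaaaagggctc
Ebp, chrX:8193533-8193712, minus strand: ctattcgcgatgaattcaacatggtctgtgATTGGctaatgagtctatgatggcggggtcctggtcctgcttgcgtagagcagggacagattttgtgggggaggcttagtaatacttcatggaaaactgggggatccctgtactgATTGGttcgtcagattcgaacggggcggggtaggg
Acss2, chr2:155517940-155518004, plus strand: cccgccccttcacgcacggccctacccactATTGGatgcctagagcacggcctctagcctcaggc
Hsd17b12, chr2:94158009-94158113, minus strand: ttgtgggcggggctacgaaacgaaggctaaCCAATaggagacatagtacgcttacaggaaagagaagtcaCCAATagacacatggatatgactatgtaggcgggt
Nsdhl, chrX:72918382-72918520, plus strand: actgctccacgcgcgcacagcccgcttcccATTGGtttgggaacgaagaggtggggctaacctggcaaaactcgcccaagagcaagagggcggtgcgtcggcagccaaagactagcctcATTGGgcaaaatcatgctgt
Msmo1, chr8:64733599-64733768, minus strand: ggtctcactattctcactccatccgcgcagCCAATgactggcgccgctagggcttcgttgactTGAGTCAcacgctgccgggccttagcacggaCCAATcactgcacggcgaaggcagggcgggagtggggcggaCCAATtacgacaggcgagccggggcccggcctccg

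The Mvk stretch holds 5 NF-Y boxes and the Msmo1 stretch 3, with 1 AP-1 site between the first and the second of them. The Ebp, Hsd17b12 and Nsdhl stretches hold 2 NF-Y boxes each and that of Acss2 holds 1. The Nsdhl window holds 2 more after the start, and the window of another listed Dhcr7 start holds 2 NF-Y boxes and 1 AP-1 site. Of the 28 members with a window, 23 (82.1%) held CCAAT, against 41.1% of 27025 genes. CACGTG stood in 5 of 28 (Hsd17b7, Sc5d, Dhcr7, Insig1 and Scap, 17.9%), against 8.09% of all genes. TGANTCA stood in 3 of 28 (Msmo1, Dhcr7 and Me1, 10.7%), against 8.97%, and TCACNCCAC in Hmgcs1 alone (3.57%), against 1.44%. These are letter matches in short windows and not measured sites.

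Across arrays the mean bead intensity was 392 to 482 on 12 arrays, called the first set, and 581 to 653 on the other 6, called the second set, which are day 6 replicates 2, 3 and 4 of both genotypes. Mapk9, which encodes JNK2, read 4.51 to 5.60 in KO and 10.07 to 10.49 in wt (log2 signal), and Mapk8, which encodes JNK1, read 5.71 to 6.36 in KO and 5.44 to 6.47 in wt. Whether the Mapk8 probe lies in the deleted part is not given in the sources used here, so it checks nothing. Of 13 fibroblast markers, Col1a1, Col3a1, Pdgfra, Pdgfrb, Vim, S100a4, Fn1 and Dcn were detected on all 18 arrays. Thy1 was detected on 0 of 9 KO and 8 of 9 wt arrays, Col1a2 on 1 of 9 KO and 9 of 9 wt arrays, and Fap on 1 of 9 KO and 8 of 9 wt arrays. Lum went the other way, with detection on 8 of 9 KO and 3 of 9 wt arrays. Fbn1 has no probe. All levels are normalized log2 signals of the brightest probe of a gene, differences are on the log2 scale and given ± standard error, and adjusted p-values come from limma over 18128 features. A member counts as called at an adjusted p under 0.05.

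In the first 2 days of co-culture, 22 of the 31 measured members rose and 0 fell (mean of both genotypes, day 2 minus day 0), and 14 of the 22 rose at least 2-fold. The background in this comparison was 9.55% of all features called, 5.58% upward and 3.97% downward, with 3.91% called and at least 2-fold, and the median difference was 0.92 over the members and 0.01 over all features. By role, the called members were 4 of 5 mevalonate enzymes, 9 of 10 enzymes from squalene to cholesterol, 5 of 6 desaturation and elongation genes, 2 of 4 fatty acid synthesis genes and 2 of 6 genes of the SREBP system. Each genotype has a single day 0 array, which every member shares, so the spread of day 0 is taken from the other groups. With median scaling in place of quantile normalization the count of called members was 6, and the median difference over the members was 0.93. Among the members at least 2-fold higher, Sc5d, Pmvk, Tm7sf2, Insig1, Idi1, Lss, Dhcr7 and Cyp51 were not called with that scaling.

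**Figure D1:**
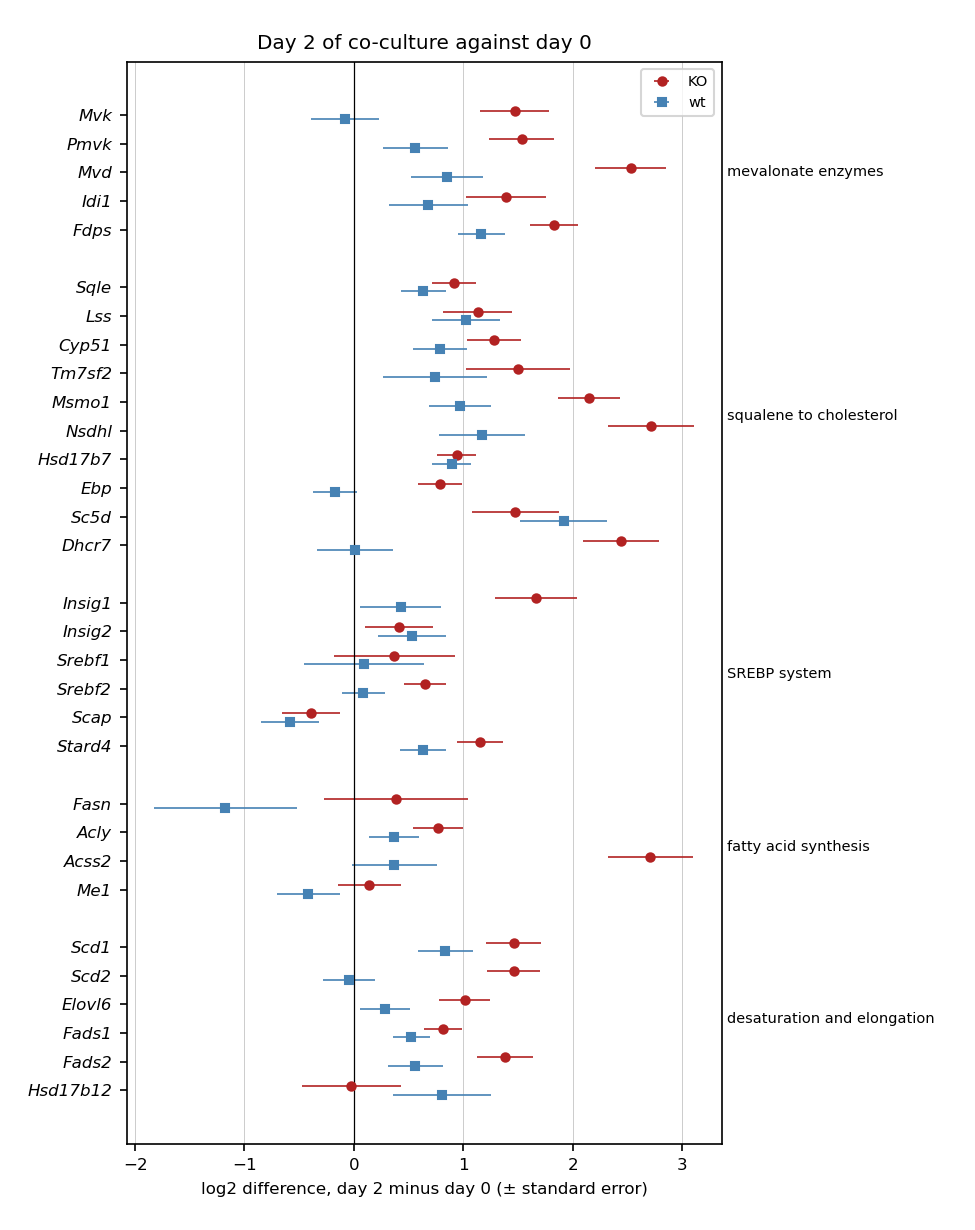
Log2 difference of day 2 over day 0 for the 31 measured members, grouped by role, in KO (circles) and wt (squares), with standard errors as bars. Most members lie to the right of 0, and the KO point lies to the right of the wt point for 28 of 31. The points of Idi1 and Tm7sf2 in KO, of Sc5d and Hsd17b12 in wt and of Fasn in both rest on a group not above background and are fitted values.

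Among the enzymes that make and use mevalonate, Mvd, mevalonate diphosphate decarboxylase, read 9.91 and 10.04 in KO at day 2, against 7.44 at day 0. In wt it read 9.30 and 9.08 at day 2, against 8.34 at day 0. Both day 2 arrays of each genotype lay above its day 0 array, and the mean rise was 1.69 ± 0.23 (3.23-fold, adjusted p = 0.000176 by limma). Fdps makes farnesyl diphosphate, the branch point between sterols and protein prenylation. Its signal was 13.64 and 13.59 in KO at day 2, against 11.78 at day 0, and 13.23 and 13.25 in wt at day 2, against 12.07 at day 0. The mean rise was 1.50 ± 0.15 (2.83-fold, adjusted p = 8.73e-06), and the smallest of the 4 day 2 values was more than 1 log2 unit above either day 0 value.

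Pmvk, phosphomevalonate kinase, read 9.03 and 9.16 in KO at day 2, against 7.56 at day 0, and 7.90 and 7.95 in wt at day 2, against 7.36 at day 0. Idi1, isopentenyl diphosphate isomerase, read 6.33 and 6.23 in KO at day 2, against 4.89 at day 0, where it was not above background, and 6.27 and 6.21 in wt at day 2, against 5.56 at day 0. The day 2 and day 0 arrays did not overlap for either gene within a genotype, and Pmvk rose by 1.05 ± 0.21 on average (adjusted p = 0.00412). Idi1 was at least 2.05-fold higher at day 2 (adjusted p = 0.0156), a bound that sets the day 2 mean against the lowest signal that counted as detected. Mvk, mevalonate kinase, did not pass the test over the mean of genotypes (0.69 ± 0.22, adjusted p = 0.0539). It read 10.40 and 10.39 in KO at day 2, against 8.93 at day 0, and 8.25 and 8.10 in wt at day 2, against 8.26 at day 0. The KO arrays of day 2 lay above that of day 0, while the wt arrays of day 2 lay just below that of day 0.

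In the steps from squalene to cholesterol, Nsdhl removes a carboxyl group from the sterol ring during C4 demethylation. It read 10.16 and 9.76 in KO at day 2, against 7.24 at day 0, and 8.94 and 8.73 in wt at day 2, against 7.66 at day 0. The mean difference was 1.95 ± 0.28 (3.85-fold, adjusted p = 0.000262), and its other 3 probes gave 1.26, 1.88 and 1.99. Msmo1, the oxidase of the same demethylation, read 11.88 and 11.83 in KO at day 2, against 9.70 at day 0, and 12.21 and 12.12 in wt at day 2, against 11.20 at day 0. The 2 days did not overlap in either genotype (mean difference 1.56 ± 0.20, adjusted p = 9.85e-05).

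Sc5d, the lathosterol desaturase, read 6.80 and 7.50 in KO at day 2, against 5.67 at day 0. In wt it read 6.60 and 6.34 at day 2, against 4.55 at day 0, where it was not above background. Its KO rise was 1.48 ± 0.40, its wt signal was at least 3.42-fold higher at day 2, and over the mean of genotypes it was at least 3.08-fold higher at day 2 (adjusted p = 0.000927). Dhcr7, which makes cholesterol from 7-dehydrocholesterol, read 8.27 and 8.23 in KO at day 2, against 5.81 at day 0, and 6.62 and 6.55 in wt at day 2, against 6.57 at day 0. The 2 KO arrays of day 2 lay more than 2 log2 units above that of day 0, while the wt array of day 0 lay between those of day 2.

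Lss, lanosterol synthase, read 9.90 and 9.96 in KO at day 2, against 8.80 at day 0, and 9.21 and 9.15 in wt at day 2, against 8.16 at day 0. Cyp51, lanosterol demethylase, read 10.81 and 10.65 in KO at day 2, against 9.44 at day 0, and 10.44 and 10.22 in wt at day 2, against 9.55 at day 0. Tm7sf2, a sterol reductase, read 6.35 and 6.25 in KO at day 2, against 4.81 at day 0, where it was not above background, and 6.91 and 6.65 in wt at day 2, against 6.04 at day 0. Within each genotype the days did not overlap for these 3 enzymes, with mean rises of 1.08 ± 0.22 for Lss and 1.03 ± 0.18 for Cyp51, and a signal at least 2.17-fold higher at day 2 for Tm7sf2. The call for Tm7sf2 (adjusted p = 0.042) was lost on leaving out any 1 day 2 array, with an adjusted p up to 0.108. Sqle, squalene epoxidase, and Hsd17b7 also rose, by 0.77 ± 0.14 and 0.92 ± 0.13, and Ebp, the sterol isomerase, was the enzyme of this role that did not pass (0.31 ± 0.14, adjusted p = 0.193).

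Of the fatty acid genes, Acss2, the cytosolic acetyl-CoA synthetase, read 10.11 and 10.05 in KO at day 2, against 7.37 at day 0. In wt it read 7.83 and 8.00 at day 2, against 7.55 at day 0. The KO difference was 2.71 ± 0.39 (6.55-fold) and the wt difference 0.37 ± 0.39. Scd1, the stearoyl-CoA desaturase, read 12.01 and 11.93 in KO at day 2, against 10.51 at day 0, and 12.08 and 12.15 in wt at day 2, against 11.28 at day 0. Its mean rise was 1.15 ± 0.18 (adjusted p = 0.000504), with no overlap between the days in either genotype. Acly (ATP citrate lyase), Scd2, Elovl6, Fads1 and Fads2 rose by 0.57 to 0.97. Fasn, fatty acid synthase, read 4.15 and 5.10 in KO at day 2, against 4.24 at day 0, and 4.37 and 4.36 in wt at day 2, against 5.54 at day 0. Of these 6 Fasn values only the wt day 0 array was above background, so no rise of Fasn could be detected.

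Within the SREBP system, Insig1, itself a target of SREBP, read 8.39 and 8.55 in KO at day 2, against 6.80 at day 0, and 7.92 and 7.69 in wt at day 2, against 7.38 at day 0. The days did not overlap in either genotype, and the mean rise was 1.05 ± 0.26 (adjusted p = 0.0171). This call was lost without wt day 2 replicate 1 or KO day 2 replicate 2, at adjusted p = 0.057 and 0.052. Stard4, a sterol carrier, rose by 0.89 ± 0.15. The transcripts of the SREBP proteins and their escort did not pass the test: Srebf2 had 0.37 ± 0.14, Srebf1 0.23 ± 0.39 and Scap -0.49 ± 0.19 (adjusted p = 0.104, 0.80 and 0.110). Other probes of the members that rose gave mixed results. Those of Fdps (1.28 ± 0.31) and Fads2 (1.21 ± 0.28) and 1 of Insig1 (1.38 ± 0.24) passed as well. Another of Insig1 (0.84 ± 0.41) did not pass, nor did those of Sqle (0.44 ± 0.25) and Hsd17b7 (0.42 ± 0.28). Dim probes of Lss (0.04 ± 0.28), Acss2 (0.08 ± 0.30) and Fads1 (0.03 ± 0.32) did not pass either. Insig2 was not called on its brightest probe, while its other probe past the filter rose (0.58 ± 0.17, adjusted p = 0.0325).

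Read within genotypes, a comparison added after the values were seen, 22 of 31 members rose in KO (background 4.53% called, 2.91% upward) and 3 of 31 rose in wt (background 2.92% called, 2.1% upward). All rises of a genotype are measured from the same single day 0 array, and 21 of 31 members read lower on the KO day 0 array than on the wt one, by 1.50 for Msmo1. In KO the count was 4 with median scaling, 10 without day 2 replicate 1 and 13 without day 2 replicate 2. In wt it was 0 with median scaling, 1 without day 2 replicate 1, 1 with the mean over probes, 7 with the set as a block and 13 with the first set alone. The 3 in wt were Fdps (1.17 ± 0.22), Hsd17b7 (0.90 ± 0.18) and Sc5d. In KO all 5 mevalonate enzymes and 9 of 10 enzymes from squalene to cholesterol passed, among them Mvk (1.47 ± 0.31) and Ebp (0.79 ± 0.20), which did not pass over the mean of genotypes. The difference between the 2 responses was tested itself, and 1 of 31 members passed, against 0.237% of all features. This was Dhcr7, with a KO response 2.43 ± 0.49 above its wt response (adjusted p = 0.0422). The call was lost with median scaling, without background correction, with the deposited matrix, without the intensity trend and on leaving out any 1 day 2 array, while the difference stayed above 1. Acss2 (2.34 ± 0.55, adjusted p = 0.0851) and Scd2 (1.50 ± 0.34, adjusted p = 0.0751) came next and did not pass.

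Fibroblast markers moved over the same 2 days. The mean of the 12 measured fibroblast markers was 8.71 to 8.77 in KO at day 2, against 8.03 at day 0, and 9.30 to 9.31 in wt at day 2, against 8.53 at day 0, and 4 of the 12 rose (Col3a1, Pdgfra, Pdgfrb and Dcn). The mean of 7 measured keratinocyte markers was 5.49 to 5.70 in KO at day 2, against 5.49 at day 0, and 5.65 to 5.67 in wt at day 2, against 5.76 at day 0. Lor, Dsg3, Dsc3 and Epcam were detected on 0 arrays. Krt10, in contrast, was detected on 9 of 9 KO and 9 of 9 wt arrays (8.89 to 9.73 in KO and 8.90 to 9.57 in wt). Ivl was detected on 1 of 9 KO and 9 of 9 wt arrays, and Trp63 on 6 of 9 KO and 2 of 9 wt arrays. For KO and wt, the counts were 1 and 1 for Krt5, 3 and 0 for Krt14, 4 and 0 for Krt1, 3 and 4 for Cdh1, and 0 and 1 for Sfn. The part of the fibroblast markers' shift in the rise of the members was not tested.

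KO and wt differed over the co-culture days, with members called higher in KO on each day. Members were called lower in KO at day 6, with 4 arrays per genotype, and over the mean of days. Days 2 and 4 have 2 arrays per genotype and so less power to call a difference. With the first set alone, 2 members were called lower at day 2 and 5 at day 4. Over the mean of days 2, 4 and 6, 14 of 31 members were higher in KO and 5 were lower, against a background of 37.9% of all features called, 20% higher and 18% lower. The members' median difference was 0.21 and that of all features 0.03. By day, the calls were 11 higher and 0 lower at day 2 (background 20% called, 9.97% higher and 10% lower). They were 8 and 0 at day 4 (background 19.1% called, 9.79% higher and 9.28% lower), and 10 and 3 at day 6 (background 28.4% called, 14.8% higher and 13.7% lower). Within the second set alone 8 members were higher and 3 lower at day 6. The first set has 1 array per genotype at day 6, so its calls on that day are not given. With median scaling, 4, 4 and 6 members (1717, 1515 and 3177 features) were called on these days, and 12 (4592 features) over their mean. With the first set alone 18 members were called at day 4, 13 higher and 5 lower. With median scaling, the share of called features that was higher in KO over the mean of days was 37.7%, against 52.7% with quantile normalization.

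**Figure D2:**
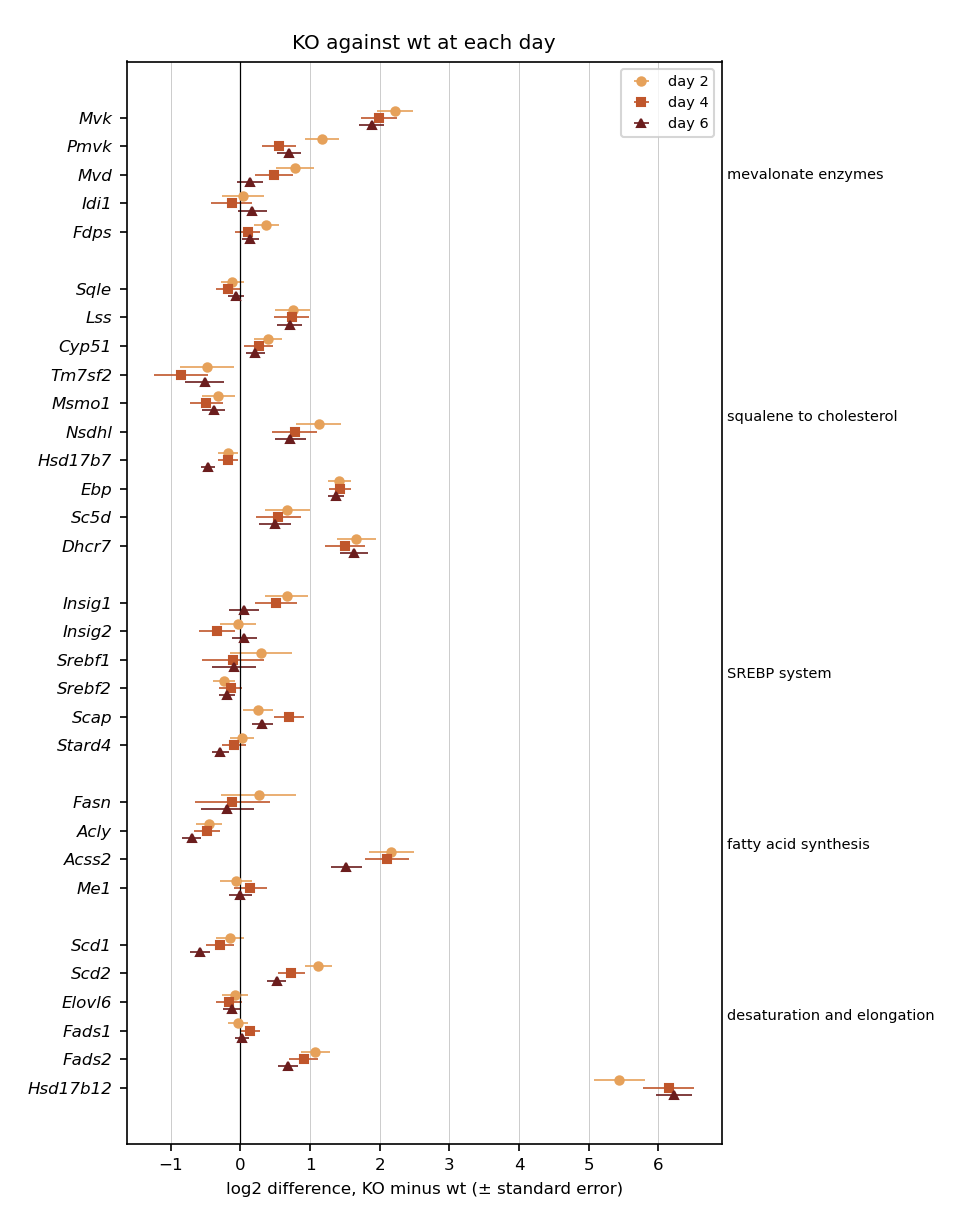
Log2 difference of KO over wt for the 31 measured members at day 2 (circles), day 4 (squares) and day 6 (triangles), with standard errors as bars. Mvk, Ebp, Dhcr7, Acss2 and Hsd17b12 lie beyond 1 on every day. The Hsd17b12 point of day 4 rests on wt arrays not above background and is a fitted value.

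Mvk, the kinase that phosphorylates mevalonate, had 10.40 and 10.39 in KO, against 8.25 and 8.10 in wt, at day 2. At day 4 it had 9.96 and 10.27 in KO, against 8.24 and 8.00 in wt, and at day 6 10.01, 9.13, 9.37 and 9.15 in KO, against 7.71, 7.68, 7.55 and 7.16 in wt. The groups did not overlap on any day, and the mean difference was 2.03 ± 0.13 (4.10-fold, adjusted p = 2.43e-10). At day 6 the difference was 2.30 in the first set and 1.75 in the second, and at day 0 the KO array stood 0.67 above the wt array. Among the other mevalonate enzymes, Pmvk was higher in KO by 0.81 ± 0.13 and Mvd by 0.47 ± 0.14 over the mean of days (adjusted p = 3.76e-05 and 0.0118). Idi1 (0.03 ± 0.16) and Fdps (0.21 ± 0.09) did not pass.

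Dhcr7 had 8.41 and 8.13 in KO at day 4, against 6.71 and 6.82 in wt. At day 6 it had 8.46, 8.55, 8.66 and 7.70 in KO, against 6.40, 6.93, 6.91 and 6.59 in wt. All 8 KO arrays of days 2 to 6 (7.70 to 8.66) lay above all 8 wt arrays (6.40 to 6.93), with a mean difference of 1.60 ± 0.15 (3.03-fold, adjusted p = 3.84e-08). With median scaling the calls of Dhcr7 at day 2 (1.39) and day 4 (1.31) were lost, as were those of Pmvk, Nsdhl, Scd2 and Fads2 at day 2. The day 6 difference of Dhcr7 was 2.07 in the first set and 1.49 in the second. At day 0 the order was the other way, with the KO array 0.77 below the wt array. Ebp, which shifts the double bond of the sterol ring, spanned 10.34 to 10.89 in KO (median 10.67) and 9.09 to 9.53 in wt (median 9.26) over the same days. Its differences were 1.42, 1.43 and 1.38 at days 2, 4 and 6, and 0.46 at day 0. The gap between the genotypes thus read wider on every co-culture day than at day 0, which has 1 array per genotype. The difference between the KO and wt responses from day 0 to day 2 was not called for Ebp.

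**Figure D3:**
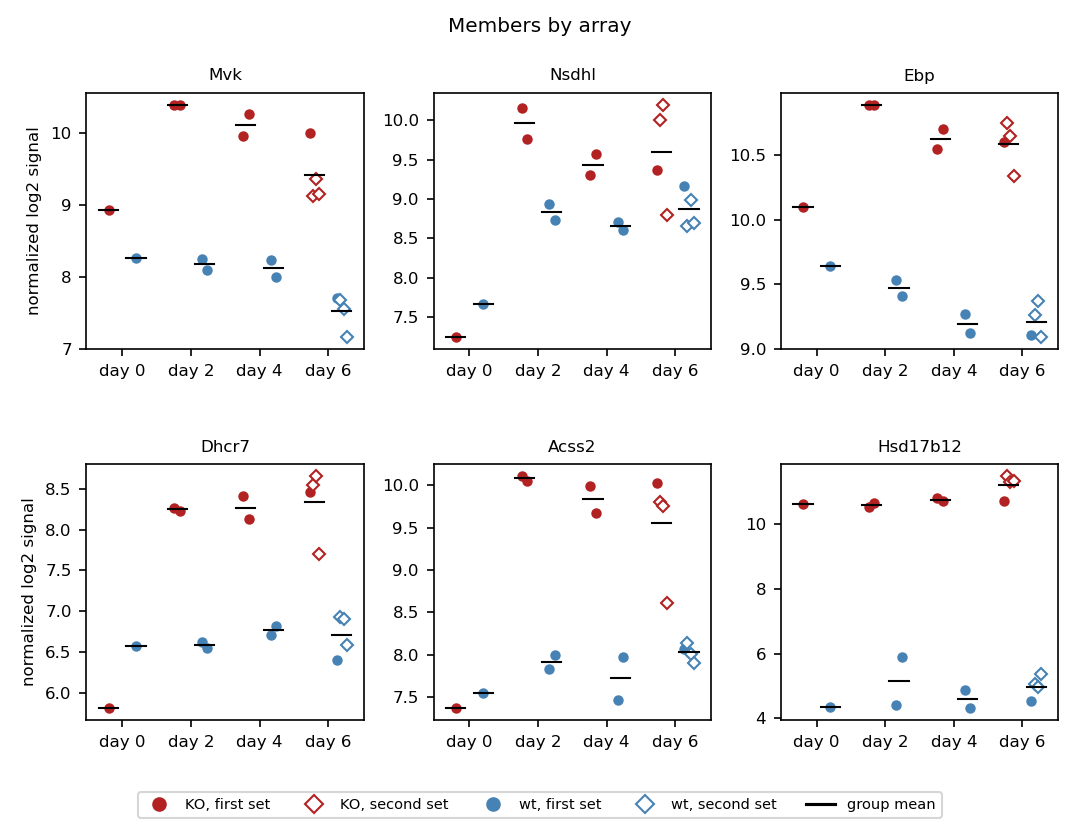
Normalized log2 signal of Mvk, Nsdhl, Ebp, Dhcr7, Acss2 and Hsd17b12 on each array by day, KO left of wt, with filled points for the first set, open points for the second set and lines for group means. From day 2 on no KO point of Mvk, Ebp, Dhcr7, Acss2 or Hsd17b12 overlaps a wt point, and KO replicate 4 of day 6 is the lowest KO point of that day for Nsdhl, Ebp, Dhcr7 and Acss2.

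Nsdhl spanned 8.80 to 10.20 in KO (median 9.66) and 8.60 to 9.17 in wt (median 8.72) over days 2 to 6, so that the genotypes overlapped. Its mean difference was 0.88 ± 0.17 (adjusted p = 0.000313), and the other 3 probes gave 0.90 to 1.19. The call at day 2 (1.13 ± 0.32, adjusted p = 0.0168) was lost without wt replicate 1, wt replicate 2 or KO replicate 1 of that day, with an adjusted p up to 0.154. Lss, Sc5d and Cyp51 were higher in KO over the mean of days, by 0.73 ± 0.13, 0.58 ± 0.17 and 0.29 ± 0.11. Tm7sf2, Msmo1 and Hsd17b7 were lower, by -0.61 ± 0.20, -0.39 ± 0.12 and -0.27 ± 0.08. Thus 9 of the 10 enzymes from squalene to cholesterol were called, 6 higher and 3 lower, and Sqle was not (-0.12 ± 0.09).

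Acss2 had 9.99 and 9.67 in KO at day 4, against 7.47 and 7.98 in wt. At day 6 it had 10.03, 9.80, 9.75 and 8.61 in KO, against 8.07, 8.14, 8.01 and 7.90 in wt. The lowest KO array of days 2 to 6 (8.61) lay above the highest wt array (8.14), and the mean difference was 1.93 ± 0.17 (3.82-fold, adjusted p = 1.29e-08). The day 6 difference was 1.97 in the first set and 1.37 in the second, and the day 0 arrays differed by -0.17. A second, dim probe of Acss2, detected on 5 KO arrays and 1 wt array, was at least 1.58-fold higher in KO over the mean of days (adjusted p = 0.00143). By day it was called at day 2 (adjusted p = 0.0123). It was not called at day 4 (0.99 ± 0.35, adjusted p = 0.0602) or day 6 (0.16 ± 0.25, adjusted p = 0.744).

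Acly, which makes cytosolic acetyl-CoA from citrate, differed in the opposite direction. It spanned 12.29 to 12.69 in KO and 12.78 to 13.57 in wt over days 2 to 6, without overlap, and the mean difference was -0.54 ± 0.10 (adjusted p = 0.000168). Scd1 was lower in KO by -0.34 ± 0.11 over the mean of days and by -0.58 ± 0.14 at day 6 (-0.17 in the first set and -0.72 in the second), while Scd2, a second stearoyl-CoA desaturase, was higher by 0.79 ± 0.10. Scd2 read 10.82 and 10.82 in KO, against 9.73 and 9.67 in wt, at day 2, and 10.66 and 10.50 in KO, against 9.68 and 10.01 in wt, at day 4. At day 6 it read 10.84, 11.24, 11.18 and 10.91 in KO, against 10.12, 10.77, 10.57 and 10.62 in wt. The Scd2 groups did not overlap within any day.

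Fads2, the delta-6 desaturase, spanned 8.57 to 9.23 in KO (median 8.95) and 7.88 to 8.39 in wt (median 8.13), again without overlap, with a mean difference of 0.89 ± 0.11 (adjusted p = 1.47e-06). Its second probe gave 0.43 ± 0.17 (adjusted p = 0.0535). Fads1 (0.04 ± 0.07), Elovl6 (-0.12 ± 0.10), Me1 (0.03 ± 0.12) and Fasn (-0.01 ± 0.28) did not pass. Fasn was detected on 3 KO and 4 wt arrays, 3 of each at day 6, where it read 4.24, 5.53, 5.59 and 5.89 in KO, against 4.34, 6.29, 5.68 and 5.69 in wt.

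Hsd17b12 encodes the ketoreductase of fatty acid elongation and had, on its brightest probe, the widest gap of any member. Its brightest probe read 10.53 and 10.65 in KO, against 4.42 and 5.88 in wt, at day 2, and 10.80 and 10.70 in KO, against 4.89 and 4.31 in wt, at day 4. At day 6 it read 10.72, 11.49, 11.30 and 11.34 in KO, against 4.53, 5.06, 4.97 and 5.37 in wt. It was detected on 9 of 9 KO and 4 of 9 wt arrays, and on neither wt array of day 4, where the KO level was at least 63.4-fold higher (adjusted p = 3.55e-10). At day 0 it read 10.61 in KO and 4.35 in wt, where it was not above background. A second, dim probe, detected on 8 KO and 7 wt arrays, differed by 0.40 ± 0.19 (adjusted p = 0.127) and did not pass.

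Adipocyte markers were lower in KO on the same arrays. The mean of the 6 measured markers was 4.73 to 5.19 in KO and 6.10 to 7.33 in wt, and 3 of 6 passed the test: Lpl (-4.18 ± 0.21), Pparg (-4.13 ± 0.22), the nuclear receptor that drives fat cell formation, and Adipoq. Adipoq was detected on 0 of 9 KO and 6 of 9 wt arrays. Relative to wt, its KO signal was lower by at least 4.19-fold on day 4 (adjusted p = 0.000231) and by at least 2.15-fold on day 6 (adjusted p = 0.00138). Fabp4 and Plin1 were detected on 0 arrays. Of the 12 measured fibroblast markers 3 were higher and 6 lower in KO, and of the 7 measured keratinocyte markers 3 were higher and 1 lower. Their part in the lower Acly and Scd1 signal in KO was not tested.

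Of the 6 genes of the SREBP system, 1 was called between genotypes over the mean of days. This was Scap, the SREBP escort, with 0.42 ± 0.11 (adjusted p = 0.00538). It spanned 8.16 to 8.75 in KO (median 8.51) and 7.71 to 8.35 in wt (median 8.10), with overlap, and was not called with median scaling (0.23, adjusted p = 0.512). Srebf2 spanned 9.21 to 9.56 in KO and 9.43 to 9.90 in wt (-0.19 ± 0.08, adjusted p = 0.0929). Srebf1, a dim probe detected on 16 arrays, spanned 4.88 to 6.88 in KO and 5.09 to 6.41 in wt (0.03 ± 0.24). Both ranges overlapped. Insig1 spanned 7.35 to 8.55 in KO and 7.24 to 8.28 in wt (0.41 ± 0.16, adjusted p = 0.0532). Its other probes past the filter differed in sign, with 0.22 ± 0.15 and -0.28 ± 0.25 (adjusted p = 0.285 and 0.433). At day 6 Insig1 read 8.22 in KO and 8.28 in wt on the first-set arrays, and on average 7.49 in KO and 7.40 in wt on the second-set arrays, so that the sets lay further apart than the genotypes.

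**Figure D4:**
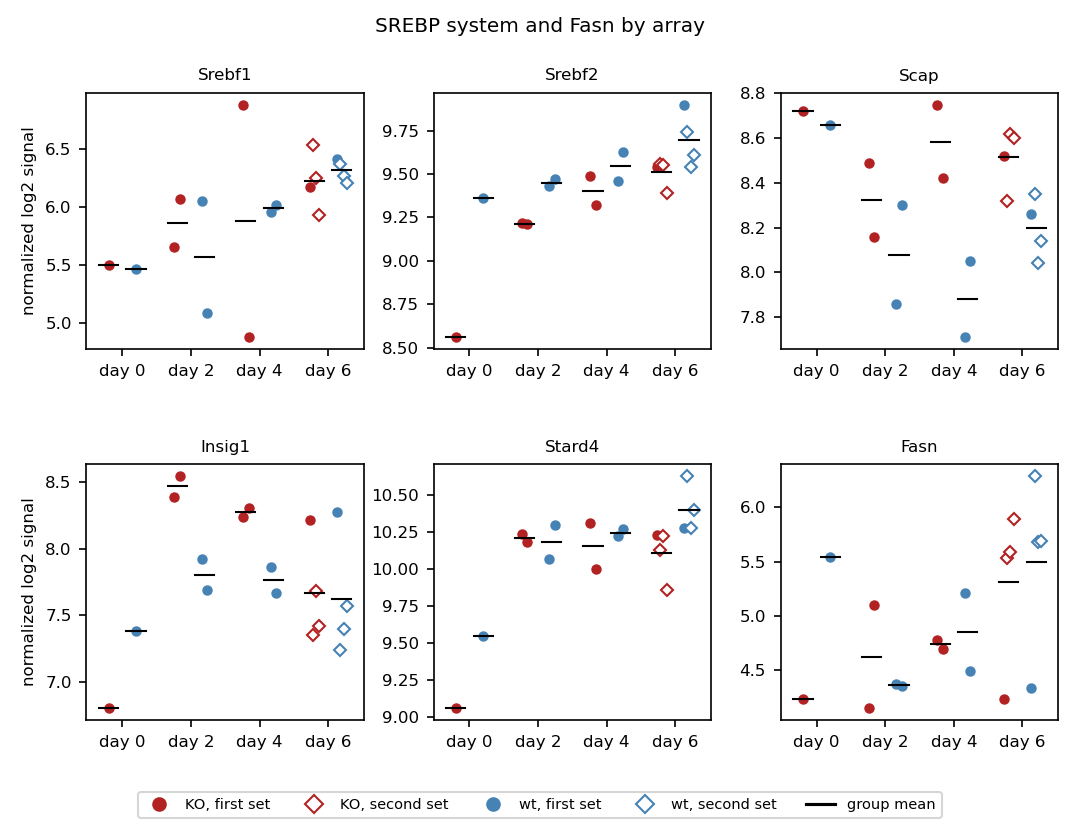
Normalized log2 signal of Srebf1, Srebf2, Scap, Insig1, Stard4 and Fasn on each array by day, KO left of wt, with filled points for the first set, open points for the second set and lines for group means. The genotypes overlap for each of these genes over days 2 to 6, and the Insig1 arrays of day 6 split by set in both genotypes.

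The probes of several members gave different answers. The brightest probe of Insig2, an anchor of SCAP, spanned 8.69 to 9.69 in KO and 8.88 to 9.85 in wt (-0.10 ± 0.14). The other Insig2 probe past the filter read 7.91 to 8.42 in KO and 9.33 to 9.78 in wt, without overlap, with a mean difference of -1.47 ± 0.10 (2.77-fold lower in KO, adjusted p = 2.85e-10). It stood 1.24 lower in KO at day 0 as well. A dim second probe of Fdps spanned 6.51 to 7.31 in KO and 4.81 to 6.68 in wt and was higher in KO by 1.35 ± 0.19 (adjusted p = 6.17e-06), while the brightest probe differed by 0.21. Hsd17b12 is described above. The second probe of Lss, detected on 15 arrays, differed by 0.11 ± 0.17 (adjusted p = 0.703), that of Hsd17b7 by -0.16 ± 0.17 (adjusted p = 0.533) and that of Scap, detected on 4 arrays, by -0.01 ± 0.16 (adjusted p = 0.969), where the brightest probes passed. The second Srebf2 probe was lower in KO (-0.35 ± 0.10, adjusted p = 0.00796) where the brightest did not pass, with the same sign.

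**Figure D5:**
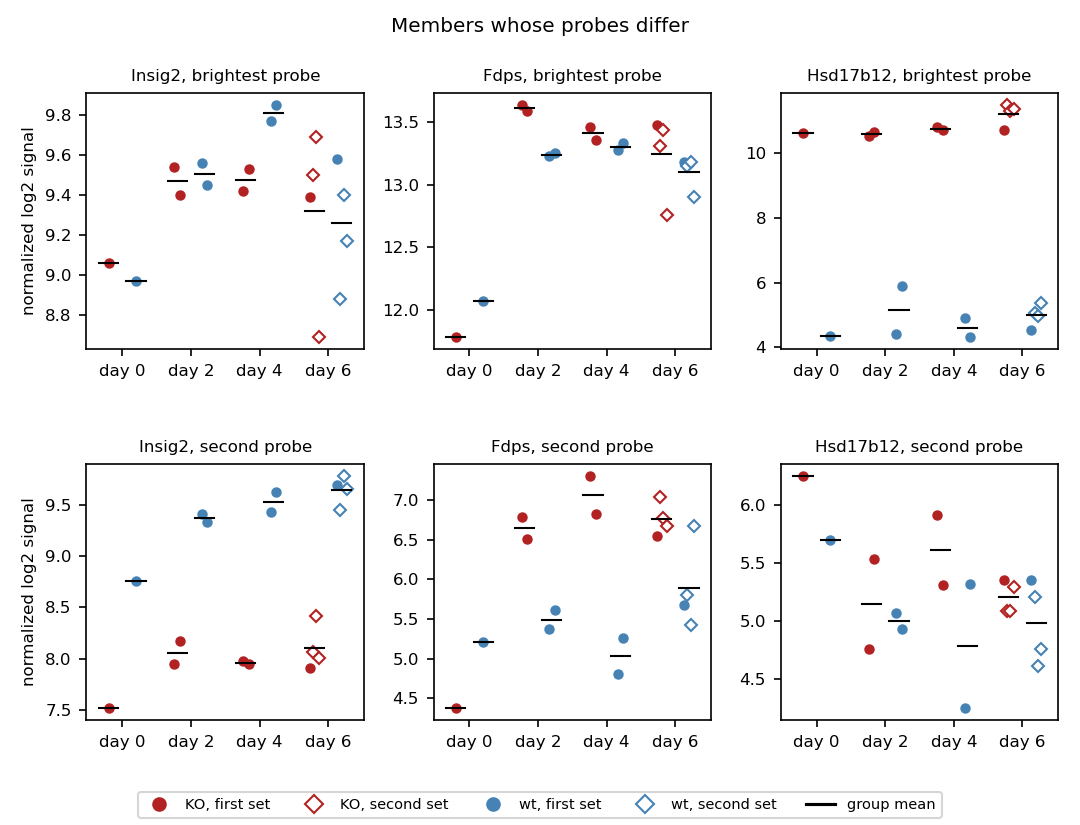
Normalized log2 signal of both probes of Insig2, Fdps and Hsd17b12 on each array by day, KO left of wt, with filled points for the first set, open points for the second set and lines for group means. The genotypes separate on the second probe of Insig2 and on the brightest probe of Hsd17b12, and the other probe of each gene shows overlap.

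After day 2 few members were called. Between day 4 and day 2, 0 of 31 were called, as were 0 of all 18128 features (0%), with 771 features (4.25%) at an unadjusted p under 0.05. Between day 6 and day 2, 2 of 31 were called, against 3.31% of all features: Mvk was lower at day 6 by -0.81 ± 0.16 (adjusted p = 0.0277) and Scd2 higher by 0.52 ± 0.12 (adjusted p = 0.0381). Mvk at day 6 averaged 9.22 in KO and 7.46 in wt on second-set arrays and read 10.01 in KO and 7.71 in wt on first-set arrays. With the set as a block the 2 differences were -0.43 and 0.22 (adjusted p = 0.707 and 0.851), and with the replicate number as a block -0.65 and 0.48 (adjusted p = 0.236 and 0.264). Leaving out 1 array at a time gave 10 called members without KO replicate 1 of day 6, 8 without wt replicate 1 of day 6, and 0 or 1 without any other array. The change in the KO against wt difference between day 2 and day 6 was called for 0 of 31 members and 0 of all features (0%), with 711 features (3.92%) at an unadjusted p under 0.05.

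Other genes of lipid metabolism were counted beside the members, over the mean of days, where 37.9% of all features were called (20% higher and 18% lower in KO). In uptake, storage and transport of cholesterol, 3 of 9 measured genes were higher in KO and 5 were lower. Examples are Lipa, lysosomal acid lipase (1.91 ± 0.20), Vldlr (1.42 ± 0.18) and Lrp1 (-1.47 ± 0.23), the last pair being lipoprotein receptors. Of 7 measured genes for sterol sensing and SREBP processing, 1 was higher and 4 were lower, including Mbtps1 (-0.60 ± 0.16), a protease that cuts SREBP, and Rnf139 (-0.71 ± 0.19) and Ufd1 (-0.70 ± 0.12). Among 17 further genes of fatty acid synthesis, elongation and activation, 6 were higher and 3 lower, led by Elovl4 (1.67 ± 0.12), Hacd1 (1.18 ± 0.11) and Acsl4 (-1.14 ± 0.14).

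Against the same background of 37.9% of all features called, 2 of 8 genes of glycerolipid synthesis were higher in KO and 3 were lower. The largest of these differences was that of Dgat1 (-1.0 ± 0.14), which makes triglyceride. Aldh1l2 (-2.92 ± 0.19) was the lower and Idh1 (0.34 ± 0.11) the higher of 2 called among 6 genes of NADPH supply. Lbr, a sterol reductase of the nuclear envelope (0.75 ± 0.10), and Nus1 (-0.45 ± 0.12) were called among 4 further mevalonate and sterol enzymes. Nr1h3, the sterol receptor LXR alpha (0.75 ± 0.20), was called among 3 genes of the LXR list.

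From day 0 to day 2, 0 genes of these lists fell, against 3.97% of all features downward and 5.58% upward. The counts that rose, in the order above, were 2 of 9, 1 of 7, 5 of 17, 1 of 8, 1 of 6, 0 of 4 and 1 of 3. The largest rises were those of Idh1 (1.60 ± 0.18), which makes cytosolic NADPH, Npc2 (1.19 ± 0.22), which carries cholesterol out of lysosomes, Slc25a1 (1.12 ± 0.21), the mitochondrial citrate carrier, and Lpin1 (1.12 ± 0.21).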

How the data were processed

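Total RNA of 18 samples was hybridised to 1-colour Illumina bead arrays. The deposited table of non-normalized values holds, per the file headers, a bead intensity and a detection p-value for each of 45121 probes. The deposited matrix of log2 values was used as an alternative only. Its values lay within 0.00500 of the log2 quantile-normalized intensities, and every column has a median of 7.08. On 6 arrays the detection p-values were 2-sided in form and were converted to 1-sided ones. How the authors scanned the arrays is not given in the sources used here.

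Background correction and quantile normalization of these intensities used neqc (offset 16; limma 3.58.1, R 4.3.3). All probes detected at p under 0.01 on at least 2 arrays were kept (26407), and each gene was read by its brightest probe, which gave 13106 genes and 5022 features without a single symbol. One model with 8 group means on all 18 arrays was fitted with lmFit and eBayes with an intensity trend, and p-values were adjusted over 18128 features by Benjamini-Hochberg, with a threshold of 0.05. Other probes of members were read in the same fit run on all probes kept. The number of arrays limits the precision. The script was checked on simulated data. No pair of arrays held identical values.

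Members called with a log2 difference of at least 1, and Srebf1, Srebf2, Scap, Insig1, Insig2 and Fasn, are given by array, or by lowest, median and highest value; from the other lipid lists at most the 3 largest calls are named. The members and lists were chosen with earlier results of these data known. The responses within each genotype from day 0 to day 2, the other probes, the fit without replicate 4 of day 6 and the crossed pairing were added after the values were seen. Symbols come from the platform annotation (34763 probes with 1 symbol, 18 with several, 10340 with none), and promoters from RefSeq (GRCm38.p6).

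Replicate numbers are shared between genotypes. Deviations of same-numbered arrays at day 6 had correlations of 0.57, 0.11, 0.25 and 0.16 for replicates 1, 2, 3 and 4, and replicate 1 also differs from the others in set. KO replicates 1 and 3 were closest to the wt array of their own number. KO replicate 2 was closest to wt replicate 4, and KO replicate 4 to wt replicate 2. At day 2 (-0.0088) and day 4 (-0.11) same-numbered arrays did not deviate together. The labels do not tie the numbers to a shared batch. Alternatives were the background correction, the scaling, the deposited matrix, the filter, the mean over probes, the set and the replicate number as blocks, each set alone, no intensity trend, and leaving out each array of a replicated group.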

Additional observations from a re-analysis of the deposited data

Results flagged for a closer look

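Of 62 groups of 4 arrays checked at day 6, 6 had an array set apart from the other 3 by Dixon's criterion, where chance flags about 5% of groups. KO replicate 4 of day 6 was the low array in 3 of them: Mvd read 8.64 there, against 9.61 to 9.71 on the other KO arrays, Srebf2 read 9.39, against 9.54 to 9.56, and Fads2 read 8.57, against 8.88 to 8.93. This array holds RNA of 3 pooled inserts. Without replicate 4 of both genotypes, no member call of KO against wt at day 6 was lost and Mvd was gained (0.42, adjusted p = 0.0302). On KO replicate 1 of day 6, a first-set array, Elovl6 read 9.38, against 9.74 to 9.81 on the 3 second-set arrays. On wt replicate 1, also of the first set, Mvd read 9.0, against 9.34 to 9.38. On wt replicate 4 Fdps read 12.90, against 13.15 to 13.18.

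For Dhcr7 the difference between the KO and wt responses from day 0 to day 2 was 2.43 ± 0.49 (adjusted p = 0.0422 by limma). The comparison was added after the values were seen and rests on 1 day 0 array per genotype. Over 14 alternatives the difference was 1.30 to 2.47, and in 8 of them it was not called, among them each of the 4 fits that left out 1 day 2 array (adjusted p = 0.107 to 0.148).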

How the results depend on the processing

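No call of a member with a difference of at least 2-fold changed direction under any alternative, and the calls for Mvk, Ebp, Acss2 and Hsd17b12 in KO against wt, at each day and over their mean, were kept under every one. Median scaling moved most counts. It left 6 members and 252 features called from day 0 to day 2 (81.0% of called features higher, against 58.4% with quantile normalization), and for KO against wt 6 members and 3177 features at day 6 (43.1% higher, against 52.0%), 4 and 1515 at day 4 (38.0%, against 51.3%), 4 and 1717 at day 2 (30.8%, against 49.9%) and 12 members over the mean of days. For day 6 against day 2 it gave 12 members and 2954 features (92.5% higher, against 53.2%), with the median of all features shifted to 0.34, and for the change of the KO against wt difference between days 2 and 6 it shifted that median to 0.11. With the first set alone, 18 members were called in KO against wt at day 4, 3695 features from day 0 to day 2, 2 features between days 4 and 2, and 0 members and 3 features between days 6 and 2.

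The set as a block gave 2862 features from day 0 to day 2, and 0 members and 2 features between days 6 and 2. Between days 6 and 2 the count of features was also 119 without a filter, 201 without the intensity trend (1 member each) and 397 with the mean over probes. Without a filter 1 feature was called between days 4 and 2. With the replicate number as a block, 0 members and 2 features were called between days 6 and 2, so that Mvk and Scd2 were lost. It also lost Acly (0.50, adjusted p = 0.0683) from day 0 to day 2. It gained Mvk there (0.78, adjusted p = 0.0232), Fdps at day 2, Tm7sf2, Nsdhl and Lss at day 4, and Fdps and Insig1 over the mean of days, and it changed no other call of a member. Without replicate 4 of day 6 in both genotypes, 0 members and 5 features were called between days 6 and 2. With the numbers of day 4 crossed, 11 members and 3694 features were called at day 4, as against 11 and 3623 uncrossed.

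Leaving out 1 array at a time gave 18 to 20 members and 1011 to 1147 features from day 0 to day 2, and 8 to 9 and 2331 to 2493 in KO against wt at day 2. The ranges were 6 to 8 and 2219 to 2563 at day 4, 12 to 15 and 4557 to 5179 at day 6, and 0 to 10 and 3 to 3926 between days 6 and 2. The day 0 arrays could not be left out, since each genotype has 1. Calls of members at least 2-fold apart were lost 27 times, where a call counts once for each alternative that lost it. Most of these losses came with median scaling, and those of Lss and Acss2 from day 0 to day 2 also with the mean over probes. The cause of these shifts was not tested. Genes near background, such as Fasn and Srebf1, are limited by signal.

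The responses within each genotype from day 0 to day 2 were less stable, with 56 such losses, again counted once per call and alternative. In KO, median scaling gave 4 members and 84 features (82.1% higher, against 64.2%), the set as a block 1809 features, the first set alone 2948 and no intensity trend 503, and leaving out 1 day 2 array gave 10 to 13 members and 151 to 207 features. In wt, median scaling gave 0 members and 151 features (82.8% higher, against 72.0%), the mean over probes 1 member, the set as a block 7 and 988, the first set alone 13 and 1902, and leaving out 1 array 1 to 3 members and 190 to 232 features. For the difference between the responses, 0 members were called without background correction (67 features), with the deposited matrix (69), with median scaling (2 features, with the median of all features at -0.13), without the intensity trend and without any 1 day 2 array (10 to 25 features). The count was 5 members and 168 features with the set as a block, 11 and 674 with the first set alone, 2 and 74 with the replicate number as a block, and 117 features without a filter. Both day 0 arrays are in the first set.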
